A study of Mus musculus with 45 samples.

Results

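The MCM genes Mcm2 to Mcm10 were followed in mouse embryonic stem cells (ESCs) that lacked parts of the locus of the long noncoding RNA 5430416N02Rik. The 9 genes were taken by symbol as members of the family, when earlier results of these data were already known. All 9 were found among the 33924 genes of each of the 2 expression tables. They also passed the filter that kept genes whose values varied between samples (21979 genes in the ΔPG table and 22048 in the ΔG table). RNA-seq covered 24 samples of D3 ESCs in 8 groups of 3. In ΔPG cells a PGK-puro cassette replaced the promoter and gene body of 5430416N02Rik, and in ΔG cells a GFP-IRES-Puro cassette replaced the gene body only. Cells carried the replacement on one allele (heterozygous) or on both (homozygous), so every group, the heterozygous comparison group included, carried at least one replaced allele and no wild-type group was part of these tables. Each line was profiled as ES samples, cultured for 48 h with the solvent DMSO, and as RA samples, cultured for 48 h with 2 µM retinoic acid, a morphogen that takes ESCs out of the pluripotent state. The sample titles name no clone, and the display of these samples in the study labels each genotype of each deletion with a single clone, so clone and genotype cannot be told apart and p-values measure the spread between the replicate cultures of a group only.

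The products of Mcm2 to Mcm7 assemble into the ring-shaped hexamer that is loaded onto replication origins before S phase and, once joined by Cdc45 and the GINS complex, unwinds DNA at the fork. MCM10 acts in the step that turns the loaded ring into an active helicase, and MCM8 and MCM9 form a separate complex that works in homologous recombination and is not part of the replicative ring. Transcription of the subunit genes is known to be under E2F control, and rapidly cycling ESCs are known for an ample supply of MCM proteins.

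The promoters are shown first, because shared promoter letters are a feature of the family that the choice of genes did not use. RefSeq promoter sequences (assembly GRCm38.p6, 300 bases each, from 250 bases before the annotated start to 50 after it) matched 8 of the 9 genes, with 9 promoters since Mcm7 has 2, and Mcm4 had no entry. The E2F core was searched on both strands as TTNNCGC, with C or G at each N. It was present in 6 of the 9 promoters, those of Mcm3, Mcm5, Mcm6, Mcm7 (both) and Mcm8, against 9.57% of all 32851 promoters in the table. CCAAT was present on either strand in 9 of 9 promoters (37.4% of all promoters), GGGCGG in 8 of 9 (35.7%, Mcm5 being the exception) and CACGTG in 1, that of Mcm8 (7.15%). The following 30-base stretches, written 5′ to 3′ on the strand of the gene, hold matches to the E2F core, with the matched letters in capitals. Where 2 matches on opposite strands overlap, the capitals run over both, and in the last Mcm7 stretch the letters after the capitals complete a CCAAT.
Mcm3, chr1:20820263-20820292, minus strand: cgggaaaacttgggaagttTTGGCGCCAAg
Mcm5, chr8:75109347-75109376, plus strand: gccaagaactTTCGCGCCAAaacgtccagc
Mcm6, chr1:128359795-128359824, minus strand: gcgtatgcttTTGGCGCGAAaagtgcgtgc
Mcm6, chr1:128359732-128359761, minus strand: ttggacgggtTTGGCGCGAAgtagctcagc
Mcm7, chr5:138171362-138171391, minus strand: ggcgctagcgaaTTCCCGCgtccactggag
Mcm7, chr5:138171847-138171876, minus strand: gtgacgacgtTTCGCGCCAAtttcggttgg
Mcm8, chr2:132816161-132816190, plus strand: gcagaagcgcgtcatagacGCGCCAAaaaa
The printed stretches of Mcm3, Mcm5, Mcm6 and the last of Mcm7 shared a run in which the core on one strand overlapped a core on the other, while the first Mcm7 stretch and that of Mcm8 held a single core. Further matches are not printed, and each is a single core. Relative to the annotated start they begin at 20 (Mcm3), -164 (Mcm5), 25 (Mcm6) and -165 (second Mcm7 promoter). A match is a description of letters and was not tested as a binding site.

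**Figure D1:**
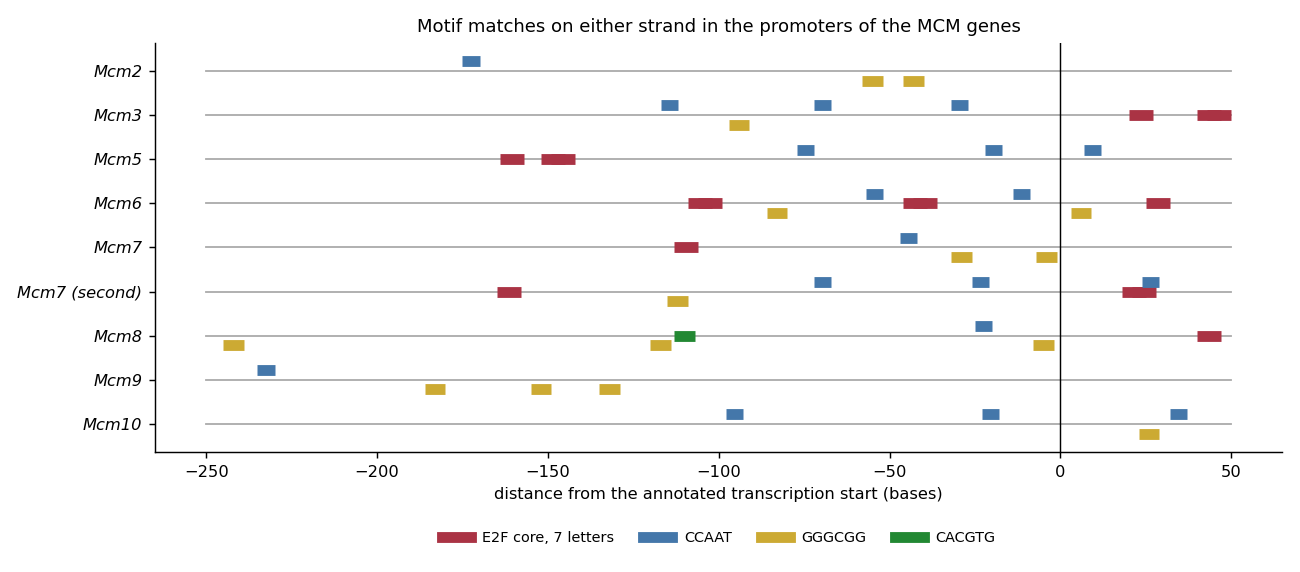
Each line is 1 of the 9 RefSeq promoters of 8 MCM genes, with distance from the annotated transcription start in bases on the x axis and matches on either strand as blocks (red, E2F core; blue, CCAAT; yellow, GGGCGG; green, CACGTG). Mcm2, Mcm9 and Mcm10 hold no E2F core in this window, and every promoter holds a CCAAT.

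On the NCBIM37 build that the authors aligned to, the genes lie on 7 chromosomes. With GENCODE vM1 annotation, Mcm2 spans chr6:88833469-88848774, Mcm3 chr1:20793055-20810359, Mcm4 chr16:15623990-15637493, Mcm5 chr8:77633427-77652338, Mcm6 chr1:130228168-130256233, Mcm7 chr5:138605811-138613650, Mcm8 chr2:132641877-132669933, Mcm9 chr10:53256135-53350245 and Mcm10 chr2:4910760-4933837. Mcm5 and Mcm8 are on the plus strand and the others on the minus strand. The GC content of the merged exons was lowest in Mcm8 (44.7%) and Mcm4 (45.5%), followed by Mcm6 (47.3%), Mcm10 (48.6%), Mcm9 (49.9%), Mcm5 (52.4%), Mcm3 (52.6%) and Mcm7 (52.7%), and was highest in Mcm2 (55.5%).

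Values are rlog values, a normalized count on a log2 scale in which low counts are drawn toward the mean of the gene, so a difference of 1 is a change by a factor of about 2 for well expressed genes and less than the true change for low ones. The tables of ΔPG and ΔG samples were normalized separately and were tested separately. A gene was called changed when limma gave an adjusted p under 0.1 and a log2 difference over 0.5 in size. The replaced gene itself, 5430416N02Rik, was lower in homozygous than in heterozygous cells in all 4 comparisons, with log2 differences of -2.30 and -1.81 in ΔPG ES and RA samples and -2.79 and -2.75 in ΔG ES and RA samples. Of 8 markers of ESCs, 8 fell in each of the 4 RA comparisons, and the log2 of their summed level went from between 13.9 and 14.2 in ES groups to between 10.6 and 10.7 in RA groups. Of 6 genes of the retinoic acid response, 6 rose. Heterozygous ΔPG ES samples stood apart from the other groups in one property of the whole table: over the 11904 genes whose rlog values averaged 3 or more, the homozygous minus heterozygous difference ran with exonic GC content (Pearson r = -0.71, Spearman rho = -0.74, across genes, which are not independent), whereas r was near 0 in ΔPG RA samples (-0.0011) and ΔG ES samples (0.0057). For the RA minus ES difference, r was -0.21 in heterozygous and 0.12 in homozygous ΔPG cells. It was 0.11 and 0.13 in heterozygous and homozygous ΔG cells.

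All members were expressed in every sample. Mcm5 had the highest rlog values of the 6 ring subunits, between 10.61 and 12.02, and Mcm4 the lowest, between 9.22 and 9.95. Per kilobase of exon (rlog minus log2 of the exon length in kb), Mcm5 remained highest and Mcm4 lowest in all 8 groups. The gap between them on this per-length scale was widest in heterozygous ΔPG ES samples, at 2.45, against 1.98 in homozygous ΔPG ES samples, 1.89 and 1.83 in heterozygous and homozygous ΔG ES samples and 1.40 to 1.60 in RA groups. In ΔPG ES samples the homozygous minus heterozygous differences of Mcm5 and Mcm4 were -0.23 and 0.24. With the GC trend of each sample removed they were -0.04 and 0.05. The gap itself was not computed with that trend removed. The subunits work in equal numbers in the ring, but their transcripts were not at equal levels. Mcm10 ranged from 8.26 to 9.75, Mcm8 from 6.31 to 7.27, and Mcm9, the lowest, from 5.34 to 6.57.

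**Figure D2:**
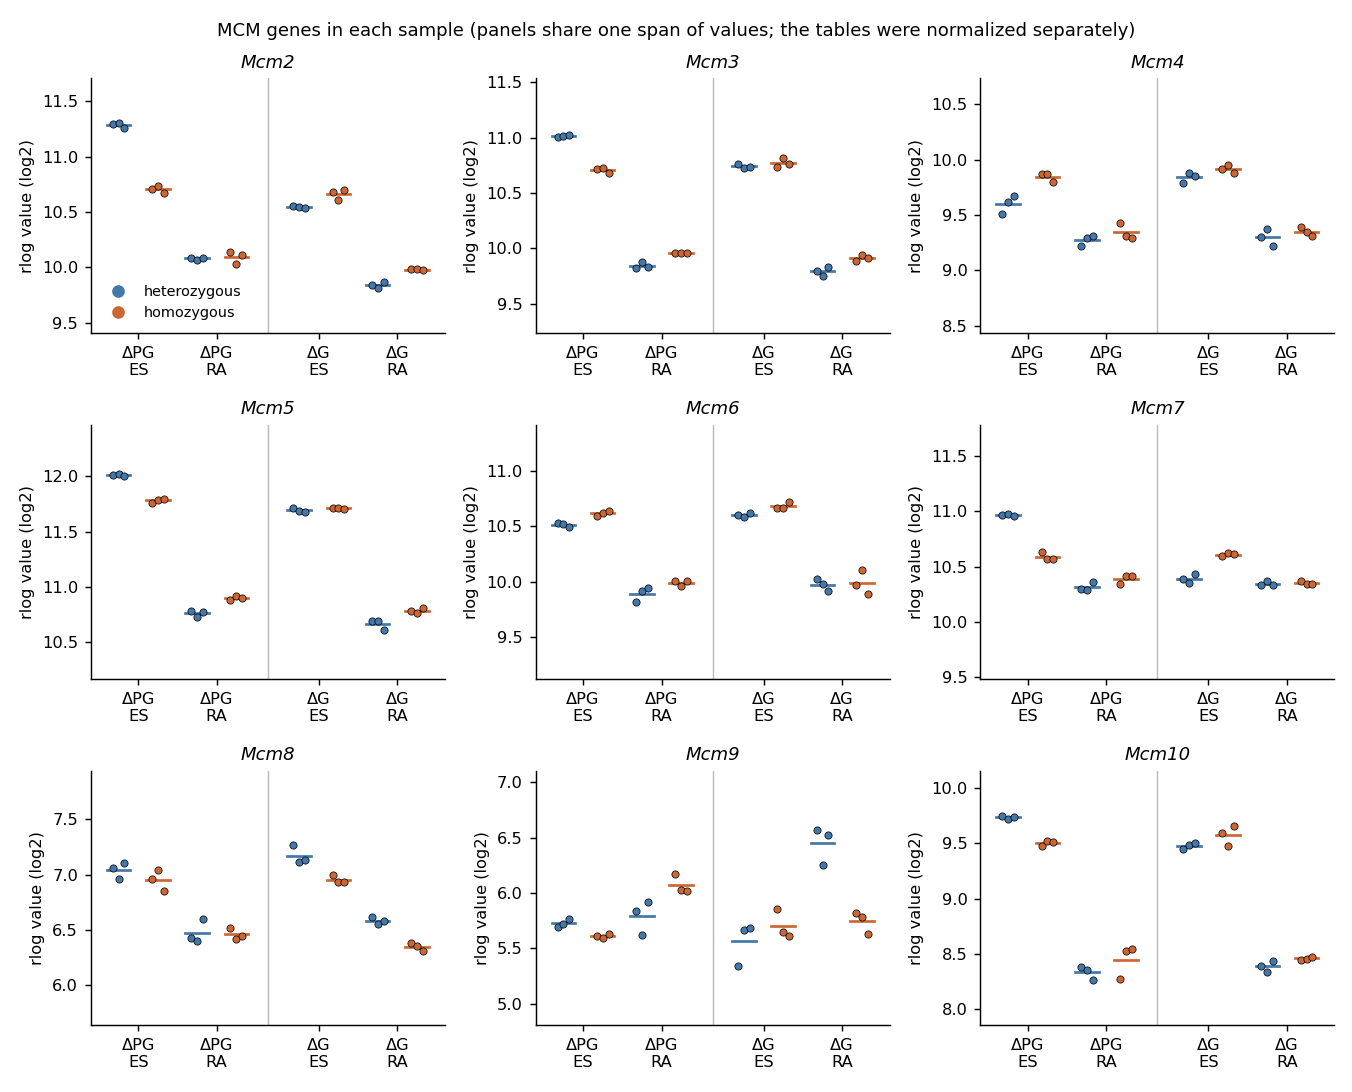
Each panel shows 1 MCM gene, with the rlog value (log2) on the y axis, 1 point per sample and a line at the mean of the 3 samples of a group (blue, heterozygous; orange, homozygous). RA samples lie below ES samples for Mcm2 to Mcm6, Mcm8 and Mcm10 in both tables, whereas Mcm7 barely separates in ΔG samples and within the ΔG table Mcm9 is highest in heterozygous RA samples.

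The first question was how the helicase genes responded to retinoic acid in each line. Most ring subunits and Mcm10 fell in all 4 line and genotype combinations, Mcm7 changed little outside heterozygous ΔPG cells, and Mcm9 did not fall in any. In heterozygous ΔPG cells 7 of 9 members were called lower (13.6% of all genes were called lower and 18% higher), and in homozygous ΔPG cells 6 of 9 (11.3% lower and 16.5% higher). In ΔG cells 7 of 9 were called lower in heterozygous (11.7%) and 7 of 9 in homozygous samples (12.1% lower and 17% higher), and 1 member, Mcm9, was called higher in heterozygous samples (17.7% higher). The median difference over the 6 subunits was -0.91 and -0.62 in heterozygous and homozygous ΔPG cells and -0.67 and -0.69 in ΔG cells, while the median over all genes tested lay between 0.01 and 0.04. After quantile normalization 5 and 2 of 9 were called lower in heterozygous and homozygous ΔPG cells and 4 and 4 in ΔG cells. In homozygous ΔPG cells these were Mcm8 and Mcm10, with no ring subunit among them. The shares of all genes above belong to the fit without quantile normalization and cannot be set beside these counts. Less RNA per cell and fewer cells of a cycling kind cannot be told apart in such bulk samples.

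Mcm5, a subunit at one side of the gate through which DNA enters the ring, fell furthest of the 6 subunits in every line, although after quantile normalization Mcm3 fell further in all 4 and Mcm2 in heterozygous ΔPG cells. Its values in ΔPG cells went from 12.01, 12.02 and 12.01 to 10.79, 10.73 and 10.77 in heterozygous samples and from 11.76, 11.79 and 11.80 to 10.88, 10.92 and 10.90 in homozygous samples. RA and ES samples did not overlap, and the log2 differences were -1.25 (SE 0.018, adjusted p = 5.5e-09, limma) and -0.88 (SE 0.024, adjusted p = 1.6e-10). In ΔG cells Mcm5 fell in heterozygous (-1.03) and homozygous samples (-0.92), a 2.04-fold and a 1.90-fold reduction. Mcm3 followed, with -1.17 and -0.75 in heterozygous and homozygous ΔPG cells and -0.95 and -0.86 in ΔG cells. Mcm2, which flanks Mcm5 at the gate and also binds histones, fell in ΔPG cells (-1.20 and -0.61) and in ΔG cells (-0.71 and -0.68). In heterozygous ΔPG cells, genes within 1 percentage point of the GC content of Mcm2 had a median difference of -0.27. With the GC trend removed, Mcm2 was at -0.97 in heterozygous and -0.70 in homozygous ΔPG cells.

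Mcm4 and Mcm6, neighbours in the ring and part of its helicase core with Mcm7, gave smaller reductions. Mcm6 fell by nearly the same amount in all 4, with differences of -0.63, -0.63, -0.63 and -0.70, and lost its call in all 4 after quantile normalization (-0.39, -0.37, -0.36 and -0.46). Mcm4 was called lower in heterozygous (-0.54) and homozygous (-0.57) ΔG cells, calls that quantile normalization ended (-0.36 and -0.37). In homozygous ΔPG cells Mcm4 sat at the limit of size, at -0.50, and the call was lost without RA replicate 2 (-0.48) or 3 (-0.47) or ES replicate 1 or 2 (-0.49 each), after quantile normalization (-0.31) and with the GC trend removed (-0.46). In heterozygous ΔPG cells it was at -0.33 (adjusted p = 0.00052), short of the limit of size. There its 3 ES values of 9.51, 9.62 and 9.67 lay below those of the homozygous ES samples (9.80 to 9.87), although each was above the RA values of 9.22, 9.29 and 9.31.

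Mcm7 was the exception among the subunits. In heterozygous ΔG cells its ES values were 10.39, 10.35 and 10.44 and its RA values 10.33, 10.37 and 10.34, which overlapped. The difference was -0.05 (95% interval -0.13 to 0.03, adjusted p = 0.32), and after quantile normalization it turned to 0.21 (adjusted p = 0.0026). In homozygous ΔG cells Mcm7 went from 10.59, 10.62 and 10.61 to 10.37, 10.34 and 10.35, with no overlap, a difference of -0.26 that was within the limit of size and became 0.0030 after quantile normalization. Homozygous ΔPG cells gave -0.20, which turned to 0.098 after quantile normalization. Only heterozygous ΔPG cells gave a called reduction, from 10.97, 10.97 and 10.96 to 10.30, 10.29 and 10.36, at -0.65 (adjusted p = 3.1e-07), and this call was lost after quantile normalization (-0.42) and after removal of the GC trend (-0.49). In the 3 other combinations the 95% interval of Mcm7, reaching down to -0.32 at most, did not overlap that of any other subunit.

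Mcm10, the activation factor, gave the largest reduction of the 9 genes in every line, with -1.40 and -1.05 in heterozygous and homozygous ΔPG cells and -1.09 and -1.11 in ΔG cells. Mcm8 and Mcm9 act as partners, yet their transcripts did not move together. Mcm8 was called lower in heterozygous ΔPG cells (-0.57) and in heterozygous (-0.59) and homozygous (-0.61) ΔG cells, and it was at -0.49, inside the limit of size, in homozygous ΔPG cells, where leaving out RA replicate 1 (-0.52) or ES replicate 3 (-0.54) moved it past the limit. Mcm9 rose in heterozygous ΔG cells, from 5.34, 5.66 and 5.68 to 6.57, 6.25 and 6.53. These RA values did not overlap the ES values, and the difference was 0.89 (SE 0.12, adjusted p = 2.6e-05). In homozygous ΔPG cells Mcm9 was higher by 0.46 (adjusted p = 0.0013), inside the limit of size, as 1 of 9 members that were higher by adjusted p alone (29.3% of all genes). It was at 0.06 in heterozygous ΔPG cells and 0.04 in homozygous ΔG cells, with overlapping samples (adjusted p = 0.59 and 0.82), and both signs turned after quantile normalization (-0.08 and -0.15).

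**Figure D3:**
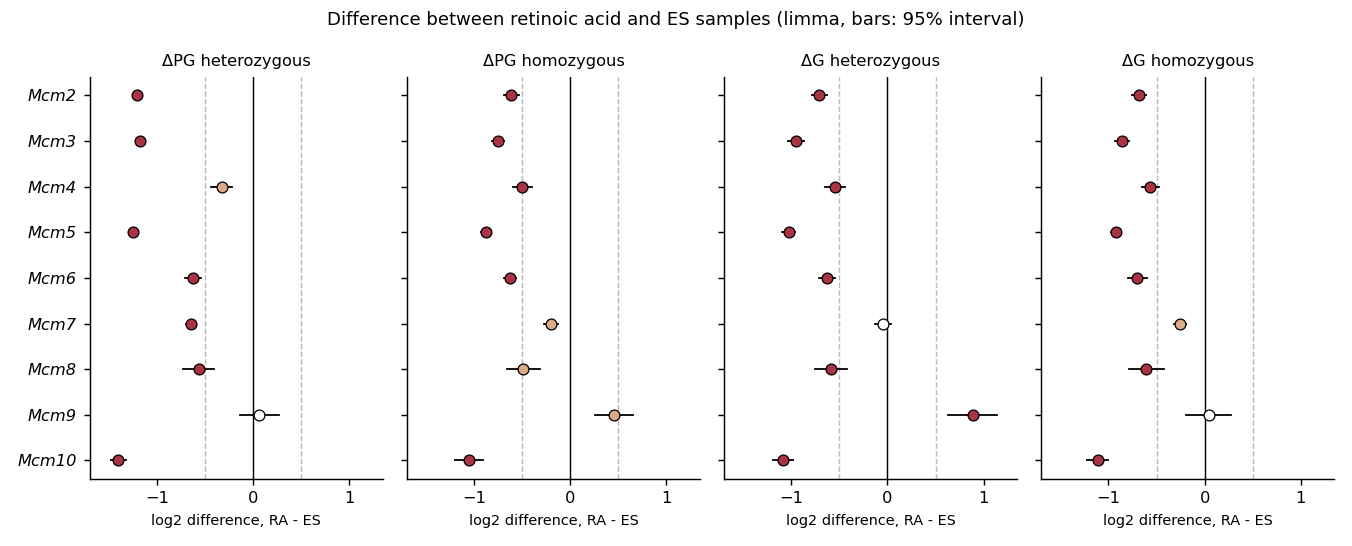
The x axes give the log2 difference between RA and ES samples for the 9 genes in 4 line and genotype combinations, with points for the difference from 3 against 3 samples and bars for its 95% interval (dark red, called; light, adjusted p under 0.1 only; white, neither; dashed lines at differences of 0.5 in size). Mcm2, Mcm3, Mcm5, Mcm6 and Mcm10 lie left of the limit in every panel. Mcm9 stands to the right of them in each panel and Mcm7 in all but the first, the 3 in which quantile normalization turned Mcm7 positive.

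Other genes of the pathway moved less uniformly. Among 10 origin licensing genes, which load the ring, 4 and 6 were called lower in heterozygous and homozygous ΔPG cells and 6 and 4 in ΔG cells, with Orc1, a subunit of the origin recognition complex, at -0.90, -0.90, -0.96 and -0.89. Orc4 was called higher in heterozygous ΔPG cells (0.88). Of 12 genes from helicase loading to activation, between 4 and 5 were called lower in each line and 1 higher, Donson, in heterozygous ΔPG (0.57) and homozygous ΔG cells (0.54). The largest reduction of this group was that of Ticrr, listed as 5730590G19Rik, whose product brings Cdc45 to the ring, at -1.20, -0.79, -1.22 and -1.38. Of 27 replication fork genes, 11 and 9 were called lower in ΔPG cells and 7 and 8 in ΔG cells, among them Lig1, the DNA ligase of lagging-strand synthesis, at -1.22 and -0.70 in ΔPG cells, and Pola1, the catalytic subunit of polymerase alpha, at -0.90 in homozygous ΔPG cells and -1.08 and -0.90 in ΔG cells. Pold4, a small subunit of polymerase delta, was called higher in ΔG cells (0.63 and 0.73). The 13 E2F and pocket protein genes split. Between 4 and 6 were called higher and 2 or 3 lower. Rb1, which restrains E2F activators, rose by 1.88, 1.67, 1.19 and 1.18, and E2f7, a repressor, by 1.20, 1.37, 1.71 and 1.52, whereas the activators E2f1 and E2f2 were at -1.13 and -1.26 in heterozygous ΔPG cells and at -0.51 and -0.67 in homozygous ΔPG cells. In ΔG cells the largest called reductions were E2f1 (-0.68) and E2f4 (-0.51) in heterozygous samples. In homozygous ΔG samples they were Rbl2 (-0.58) and E2f2 (-0.51), so the reductions were not confined to E2f1 and E2f2.

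Markers of other cell types moved in the same samples. All 6 endoderm genes rose in all 4 combinations, the neural progenitor genes Pax6 and Nes rose, and 4 or 5 of 6 fibroblast genes rose, with Thy1, a surface marker, not among them and called lower in ΔPG cells (-0.67 and -0.53). The log2 summed level of the fibroblast genes went from between 6.08 and 6.59 in ES groups to between 8.90 and 9.70 in RA groups and that of the endoderm genes from between 8.61 and 9.33 to between 10.5 and 11.6. The neural gene Neurog2 was near the floor in all 8 groups, with mean rlog values from -2.23 to -1.95, and the endoderm gene Afp stayed between 1.21 and 2.54. The part of these cell types in the MCM reductions was not tested.

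The second question was whether the homozygous deletion changed the helicase genes. In ΔPG ES samples 1 of 9 members was called, Mcm2, which was lower (6.29% of all genes were called lower and 6.87% higher). Its values were 11.30, 11.30 and 11.26 in heterozygous and 10.71, 10.74 and 10.67 in homozygous cells. The 2 sets were far apart relative to their spread, with a difference of -0.58 (SE 0.024, adjusted p = 2.5e-06), a 1.49-fold reduction. By adjusted p alone 5 of 9 members were lower (19.2% of all genes) and 2 higher (16.8%), whereas a stricter rule, an adjusted p under 0.05 with a fold over 1.5, called 0 lower (3.88%). Those lower were Mcm2, Mcm3 (-0.31), Mcm5 (-0.23), Mcm7 (-0.38) and Mcm10 (-0.23). Those higher were Mcm4, at 9.51, 9.62 and 9.67 in heterozygous and 9.87, 9.87 and 9.80 in homozygous cells, with a difference of 0.24 (SE 0.044, adjusted p = 0.0037), and Mcm6, at 10.53, 10.52 and 10.50 against 10.60, 10.62 and 10.63, with a difference of 0.10 (SE 0.020, adjusted p = 0.0060). The ring subunits therefore went in both directions, and for all 6 every homozygous value lay outside the range of the heterozygous ones, 4 lower and 2 higher (20.9% and 18.7% of all genes). Mcm8 (-0.09, adjusted p = 0.40) and Mcm9 (-0.12, adjusted p = 0.26) did not pass.

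**Figure D4:**
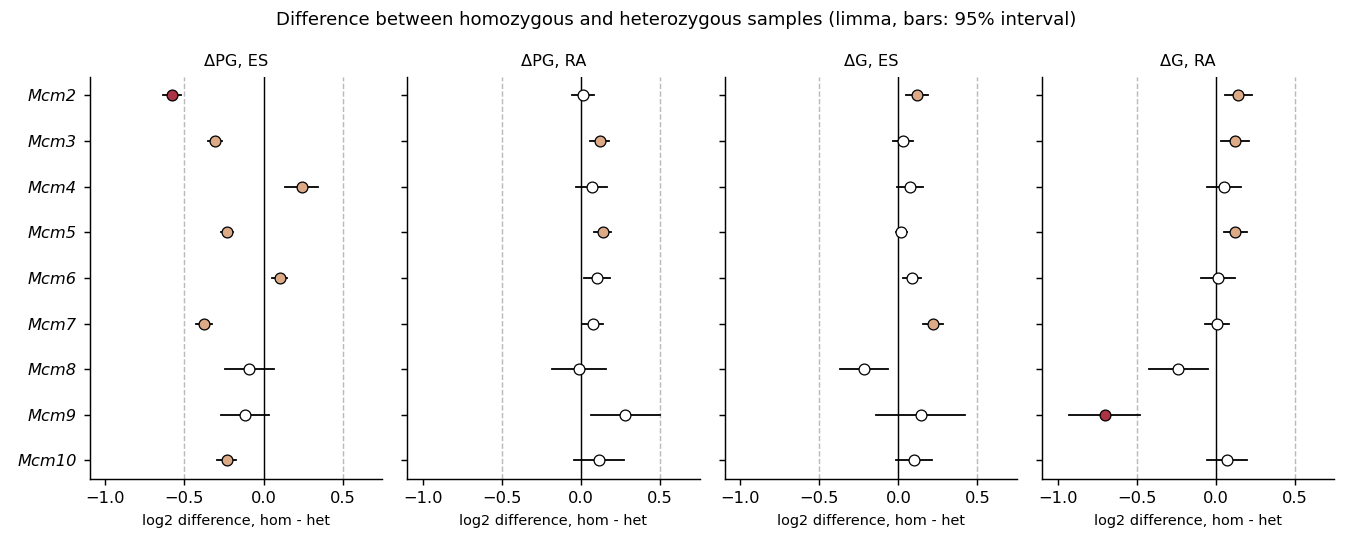
The x axes give the log2 difference between homozygous and heterozygous samples for the 9 genes, with points for the difference from 3 against 3 samples and bars for its 95% interval (dark red, called; light, adjusted p under 0.1 only; white, neither; dashed lines at differences of 0.5 in size). Mcm2 in ΔPG ES samples and Mcm9 in ΔG RA samples are the calls, and Mcm4 and Mcm6 lie on the other side of 0 from the other subunits in ΔPG ES samples.

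The order of the ring subunits in this comparison followed their GC content. The 2 subunits that were higher, Mcm4 and Mcm6, have the lowest exonic GC content of the 6, and Mcm2, the furthest down, the highest. Genes within 1 percentage point of the GC content of Mcm2 had a median difference of -0.33, against -0.58 for Mcm2 itself. For Mcm3, Mcm5 and Mcm7 the corresponding medians were -0.22, -0.21 and -0.23 beside their own -0.31, -0.23 and -0.38, and for Mcm4 and Mcm6 they were 0.16 and 0.06 beside 0.24 and 0.10. With the GC trend of each sample removed, Mcm2 was at -0.25 and no longer called, Mcm3 at -0.11, Mcm5 at -0.04 and Mcm7 at -0.17, all with an adjusted p under 0.1, a limit that 25.6% of the genes in that fit passed as lower and 22.2% as higher. Mcm4 (0.05, adjusted p = 0.31) and Mcm6 (0.02, adjusted p = 0.55) then did not pass. Mcm8 and Mcm10 lay below genes of like GC content, since medians of 0.22 and 0.00 stood beside -0.09 and -0.23, and after removal they were at -0.34 (adjusted p = 0.00041) and -0.25 (adjusted p = 1.1e-07). The transcript of Trp53, the gene of p53, averaged 7.05 in heterozygous and 4.02 in homozygous ΔPG ES samples and 6.04 and 3.83 in RA samples, so the heterozygous ΔPG groups were the high ones (differences of -3.02 and -2.21). In the separately normalized ΔG table it lay between 2.28 and 2.62 in all 4 groups, with genotype differences of -0.16 and 0.28 that did not pass. Pou5f1, the only 1 of 8 ESC markers called, and Nes were also called lower in homozygous ΔPG ES samples (-0.52 and -0.65). By adjusted p alone 2 of the 8 ESC markers were higher and 4 lower (16.8% and 19.2% of all genes). With the GC trend removed, 0 of the ESC markers and 0 of the neural markers tested were called. The part of these genes in the MCM differences was not tested.

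**Figure D5:**
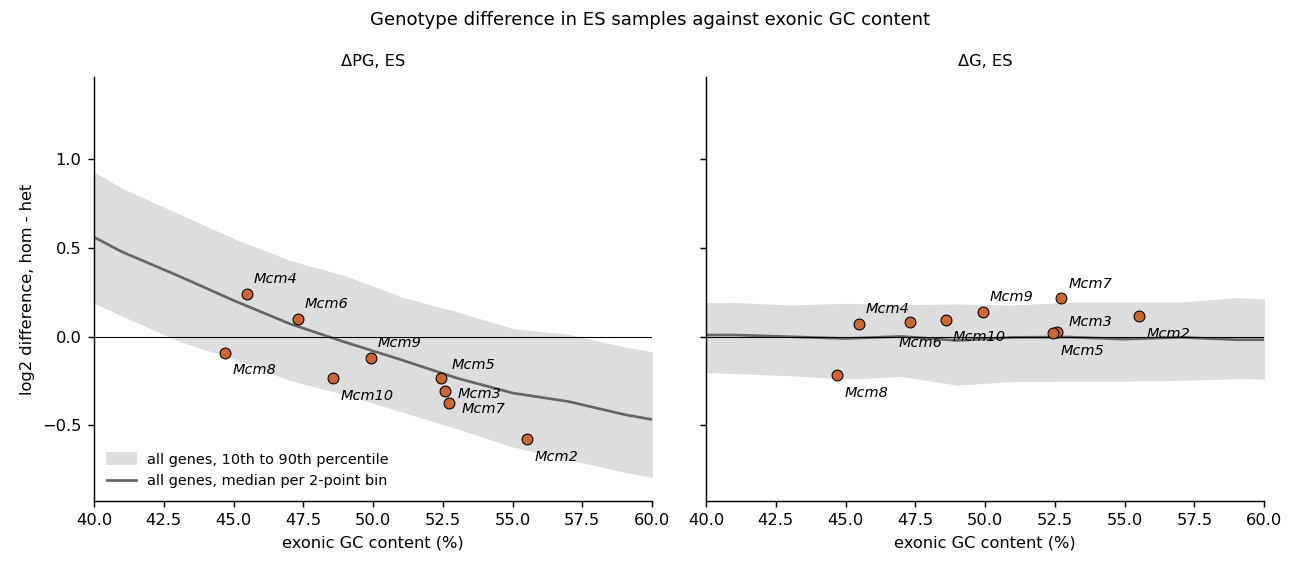
The y axes give the log2 difference between homozygous and heterozygous ES samples and the x axes the exonic GC content in percent, with orange points for the MCM genes, a grey line for the median of all genes in bins of 2 percentage points and a grey band from their 10th to their 90th percentile. In ΔPG samples the median falls, with Mcm4 (0.24) and Mcm6 (0.10) slightly above it and the other MCM genes near or below it. Mcm2, at -0.58, is the lowest MCM gene there. In ΔG samples the median is flat.

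In ΔPG RA samples 0 of 9 members were called by limma (0.605% of all genes were called lower and 0.241% higher), and 2 passed by adjusted p alone, both higher (2.36%). These were Mcm3, at 9.82, 9.87 and 9.83 in heterozygous and 9.96 in each homozygous sample (0.12, adjusted p = 0.052), and Mcm5 (0.14, adjusted p = 0.013). At an unadjusted p under 0.05, Mcm6, Mcm7 and Mcm9 joined them, which made 5 higher and 0 lower (7.53% and 6.44% of all genes). Of 6 endoderm markers 3 were called lower in the same comparison, led by Lama1 (-0.95) and Gata4 (-0.80), and their part was not tested. Mcm2 was at 0.01, with a 95% interval from -0.06 to 0.08. The genotype difference of Mcm2 was thus not the same in both treatments, and the interaction term was 0.59 (SE 0.041, adjusted p = 1.7e-07), called higher among 6.72% of all genes (7.19% were called lower). By adjusted p alone, 6 of 9 were higher (15.2% of all genes) and 1 lower (13.9%). Beside Mcm2, the interaction was higher for Mcm3 (0.42), Mcm5 (0.37), Mcm7 (0.45), Mcm9 (0.40) and Mcm10 (0.35) and lower for Mcm4 (-0.17), and Mcm6 was at -0.0018. This term holds the same ES samples as the comparison above, and it followed GC content across genes as well (Pearson r = 0.69). With the GC trend removed, Mcm2 was at 0.27 and not called, Mcm7 at 0.25, and Mcm4 turned to 0.02.

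The ΔG cells, which keep the promoter of 5430416N02Rik, gave another picture. In ES samples 0 of 9 members were called (0.354% of all genes were called higher and 0.63% lower), and 2 passed by adjusted p alone, both higher in homozygous cells (2.39% of all genes). Mcm7 went from 10.39, 10.35 and 10.44 to 10.59, 10.62 and 10.61, without overlap, at 0.22 (adjusted p = 0.0083), and Mcm2 was at 0.12 (adjusted p = 0.089). The 95% intervals of the 6 subunits lay between -0.03 and 0.28, so none reached the limit of size in either direction. At an unadjusted p under 0.05, Mcm6 (0.09) and Mcm8 (-0.22) were added, which made 3 higher and 1 lower (7.31% and 8.14% of all genes). In RA samples Mcm2 (0.14), Mcm3 (0.12) and Mcm5 (0.12) passed by adjusted p alone (4.85% of all genes higher), and the other 3 subunits lay between 0.01 and 0.05 with overlapping samples.

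Mcm9 was the member called in ΔG RA samples, and it was lower (1.46% of all genes were called lower and 0.676% higher). Its values were 6.57, 6.25 and 6.53 in heterozygous and 5.82, 5.79 and 5.63 in homozygous cells. Every heterozygous value lay above every homozygous one, and the difference was -0.70 (SE 0.11, adjusted p = 0.00018), a 1.63-fold reduction. In ES samples the values of 5.34, 5.66 and 5.68 in heterozygous and 5.85, 5.64 and 5.61 in homozygous cells overlapped (0.14, adjusted p = 0.65). The interaction term was -0.84 (SE 0.16, adjusted p = 0.0022), among 1.18% of all genes called lower (1.19% higher). It kept its call with the GC trend removed (-0.84) and after quantile normalization (-0.87). In the same RA samples the fibroblast gene Col1a2 (-1.41) and the endoderm gene Lama1 (-1.03) were called lower in homozygous cells, each as 1 of 6 on its list, and the log2 summed level was 9.70 in heterozygous and 8.90 in homozygous cells for the fibroblast list and 11.6 and 10.7 for the endoderm list. The part of these cell types in the Mcm9 difference was not tested. Mcm8, its partner, was at -0.22 in ES and -0.24 in RA samples of ΔG cells, and neither difference passed (limma, adjusted p = 0.16 and 0.12). In ΔPG RA samples Mcm9 had the opposite sign, at 5.83, 5.62 and 5.91 in heterozygous and 6.17, 6.02 and 6.02 in homozygous cells (0.28, adjusted p = 0.21). Mcm7 was the other member with an interaction in ΔG cells by adjusted p alone, at -0.21 (adjusted p = 0.0096; 2.61% of all genes lower).

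Among the other pathway genes, the origin licensing genes had the largest share of calls between genotypes in ΔPG ES samples. There 4 of 10 were called higher and 0 lower, led by Orc4 (1.21) and Orc3 (0.79), and 1 of 10 was called higher with the GC trend removed. Of the 12 genes from helicase loading to activation 1 was called higher (Dbf4, the activator of the Cdc7 kinase that phosphorylates the ring, at 0.52), and of 27 fork genes 3 were higher, led by Rpa3 (0.71), and 3 lower, led by Pold1 (-0.73) and Rpa1 (-0.64). With the GC trend removed these 2 lists held 0 and 1 calls. Among the 8 genes that act with Mcm8 and Mcm9 in repair, 0 were called by limma, with 1 higher and 2 lower by adjusted p alone. Of the 13 E2F and pocket protein genes 1 was called higher, E2f8 (0.62), and 1 lower, E2f2 (-0.59). With the GC trend removed that list again held 1 call higher and 1 lower. None of these lists held a call between genotypes in ΔPG RA, ΔG ES or ΔG RA samples, where by adjusted p alone 0 to 4 genes of a list passed in either direction.

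Genes that share ground with the members were read on their own strand, since the authors counted strand-specific libraries. Trmt6, whose start lies 86 bases from that of Mcm8 on the other strand, fell with retinoic acid in all 4 combinations (-0.60, -0.63, -0.77 and -0.81). Prkdc, the DNA-dependent protein kinase gene whose start is 466 bases from that of Mcm4, was called lower only in homozygous ΔG cells (-0.68), and it was at -0.03, -0.33 and -0.49 in the other 3. Ap4m1, 420 bases from Mcm7, was called lower in heterozygous ΔPG cells (-0.60), the combination in which Mcm7 was also called, and was between -0.14 and -0.27 in the others. Cops6, which overlaps the end of Mcm7 on the other strand, was called lower only in homozygous ΔG cells (-0.65). Asf1a, a histone chaperone gene inside the span of Mcm9 on the opposite strand, was higher in homozygous ΔPG ES samples (1.13, adjusted p = 0.00031), where Mcm9 did not pass, and was at -0.15 in ΔG RA samples (adjusted p = 0.30), where Mcm9 was called. The microRNA genes Mir25 and Mir93 inside Mcm7 were listed at 0 in every sample.

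The pattern of each subunit over the 12 samples of a table was close to the mean of the other 5. Pearson's r in ΔPG and ΔG samples was 0.95 and 0.99 for Mcm2, 1.00 and 0.99 for Mcm3, 0.79 and 0.99 for Mcm4, 1.00 and 0.99 for Mcm5, 0.94 and 0.99 for Mcm6 and 0.91 and 0.73 for Mcm7. Mcm10 was equally close to the mean of the 6 (0.99 in both), Mcm8 somewhat less (0.97 and 0.88), and Mcm9 ran opposite (-0.61 and -0.67). These values are descriptions, because the 12 samples fall into ES and RA sets and that split carries most of each r. With the means of the ES and RA sets taken out, r in ΔPG samples stayed high for Mcm3 (0.97), Mcm5 (0.92) and Mcm7 (0.90). It was negative there for Mcm4 (-0.71) and Mcm6 (-0.37), the 2 subunits of low GC content. In ΔG samples all 6 subunits lay between 0.46 and 0.76. Outside the ring, r in ΔPG and ΔG samples was then 0.73 and 0.59 for Mcm10. Mcm8 (0.46 and -0.88) and Mcm9 (0.62 and -0.42) each had opposite signs in ΔPG and ΔG samples. Among 8948 genes that averaged 5 or more in both tables on the rlog scale, those most like the mean of the 6 subunits by the lower Pearson's r of the 2 tables were Uhrf1, which guides maintenance of DNA methylation at forks, Ddx39, Dppa5a, Apoe, Gsta4 and Fzd5, with r between 0.994 and 0.998. Spearman's rho gave 6 other genes (Cct3, Tcof1, Hmgb2, Pim3, Tomm40 and Myo10), so the list depends on the measure.

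Position relative to the deleted locus was available from 4C-seq, which records regions in contact with a bait, here just upstream of the start of 5430416N02Rik, deposited as 680 significant regions over 2 replicates. The assay cuts at HindIII sites, and 28 of the 680 region starts fell within 6 bases of such a site on NCBIM37 as deposited, against 611 of the 668 that could be shifted by the local offset between the GRCm38 and NCBIM37 builds, so RefSeq positions of the GRCm38 build were used. Of the 9 genes, 6 overlapped a region in replicate 1 (Mcm2, Mcm5, Mcm6, Mcm8, Mcm9 and Mcm10) and 3 in replicate 2 (Mcm2, Mcm5 and Mcm8). The regions are long, and 54.1% and 53.6% of all protein-coding genes overlapped one. The 3 genes of replicate 2 were the 3 found in both replicates, beside 38.9% of protein-coding genes. The share of members, 3 of 9, was no higher than that of all genes.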

How the data were processed

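RNA-seq libraries (TruSeq Stranded Total RNA with Ribo-Zero) were processed by the authors with TopHat2 (version 2.1.0 in the submitters' processing notes) on NCBI37/mm9 with GENCODE vM1, Picard removal of duplicates, strand-specific counting by gene name with HTSeq (0.6.0) and DESeq2 (1.14.1). The authors deposited rlog values, which are on a log2 scale, in 1 table of 12 samples for ΔPG and 1 for ΔG. Counts and depth are not known from these tables, so no counting interval is given, and small differences of low genes such as Mcm9 are the least certain. The 4C-seq regions were deposited as coordinates. RIP-seq and capture-C samples were not analysed here.

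Groups came from the sample titles. Genes that varied were tested within each table with limma (3.58.1, R 4.3.3; lmFit and eBayes with a variance trend) on the 6 samples compared, or all 12 for an interaction, with Benjamini-Hochberg adjustment over all genes tested. Calls needed an adjusted p under 0.1 and a log2 difference over 0.5 in size. An exact permutation test of 3 against 3 samples cannot give a p under 0.1. The GC trend was removed per sample by lowess (span 0.3) among genes whose rlog values averaged 3 or more. Alternatives were another filter, no variance trend, quantile normalization, the GC trend removed, other limits, 1 fit of all 12 samples, the replicate block and leaving out each sample. On simulated data 178 to 200 of 200 genes changed by 1 on the log2 scale were recovered, with 2 to 10 false calls. Recovery of smaller differences was not tested. All 9 members were named in each comparison. Of each pathway or marker list, counts were given with at most the 2 called genes of largest rise and fall, and the values of those genes in the other comparisons. The members, lists and limits were chosen with earlier results of these data known. Names of genes are those of the tables, where Ticrr is listed as 5730590G19Rik and Sox1, a neural marker, has no row. The neural marker list is not reported here in full.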

Additional observations from a re-analysis of the deposited data

Results flagged for a closer look

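In 2 cases the genotype difference of a member differed between treatments by an interaction term past both limits. These were Mcm2 in ΔPG cells, where the RA difference minus the ES difference was 0.59 (limma, adjusted p = 1.7e-07), and Mcm9 in ΔG cells, where it was -0.84 (adjusted p = 0.0022).

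In 3 cases every homozygous sample lay on one side of the heterozygous samples in ΔPG cells and on the other side in ΔG cells, although the tables were normalized separately and the difference between them was not tested. Mcm2 in ES samples was at -0.58 in ΔPG and 0.12 in ΔG cells. Mcm7 in ES samples was at -0.38 and 0.22. With the GC trend removed, the ΔPG differences in ES samples were -0.25 for Mcm2 and -0.17 for Mcm7. Mcm9 in RA samples was at 0.28, which did not pass the test, and -0.70. In ΔPG ES samples 20.9% of all genes were lower and 18.7% higher without overlap. The share of all genes on opposite sides in ΔPG and ΔG cells was not computed.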

How the results depend on the processing

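Quantile normalization lowered the number of members called lower with retinoic acid from 7 to 5 in heterozygous ΔPG cells, from 6 to 2 in homozygous ΔPG cells (Mcm10 remained and Mcm8 was added) and from 7 to 4 in heterozygous and in homozygous ΔG cells, and it raised the interaction calls in ΔPG cells from 1 to 2 with Mcm7. It turned Mcm7 to 0.098 in homozygous ΔPG and to 0.0030 in homozygous ΔG cells. With the GC trend removed, the calls of Mcm2 in ΔPG ES samples and in the ΔPG interaction went to 0, 1 call with retinoic acid was lost in heterozygous (Mcm7) and 1 in homozygous ΔPG cells (Mcm4), and Mcm4 in the ΔPG interaction turned to 0.0245. For these changes the cause was not tested. By adjusted p alone, the count in ΔPG ES samples was 5 lower and 2 higher, in the ΔPG interaction 6 higher and 1 lower, in ΔPG RA and ΔG ES samples 2 higher each, in ΔG RA samples 3 higher, with retinoic acid in homozygous ΔPG cells 1 higher, and in the ΔG interaction 2 lower. An adjusted p under 0.05 with a fold over 1.5 left 0 calls in ΔPG ES samples. Of the 6 genes most like the subunits, 0 were among the 6 by Spearman's rho. Leaving out each sample in turn moved the count of members called lower with retinoic acid in homozygous ΔPG cells between 5 and 7, through Mcm4 and Mcm8 at the limit of size, and changed none of the other counts of calls. The 4C count of 3 genes in both replicates was also 3 with positions of the NCBIM37 build, an alternative chosen after seeing the data. Replicate numbers did not mark pairs, since same-numbered samples had correlations of deviations from -0.026 to 0.086. A limma fit with the replicate block changed the call of 0 of the 90 member values (Mcm2 in ΔPG ES samples -0.58, Mcm9 in ΔG RA samples -0.70). By adjusted p alone, it lost Mcm7 (0.13) and Mcm2 (0.25) in ΔG ES samples. It also lost Mcm3 (0.17) and Mcm5 (0.104) in ΔPG RA samples and Mcm4 in the ΔPG interaction (0.11). Quantile normalization lost Mcm6 in ΔPG ES (0.101), Mcm3 in ΔPG RA (0.12) and ΔG RA (0.19) and Mcm2 in ΔG ES samples (0.18). Mcm4 in the ΔPG interaction (0.12) was lost there too. Without counts, the precision of single values is limited to the spread of 3 samples.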
